A study of Mus musculus with 13 samples.

Results

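The genes described here are 10 transcription factors of the heart: Gata4, Gata6, Tbx5, Tbx20, Tbx3, Nkx2-5, Hand2, Mef2a, Mef2c and Mef2d. They were chosen by gene symbol from the 36158 genes to which the listed transcripts could be assigned. No measured value entered the rule, but earlier results of these data were known when they were chosen. RNA was sequenced in 13 libraries from mice on room air. Heart tissue gave 4 Hmox2+/+ libraries (the wildtype) and 3 Hmox2-/- libraries, and aortic endothelial cells (ECs) gave 3 libraries of each genotype. The labels number the libraries but do not state that each came from a separate mouse, as the tests assume. The paper describes fewer wildtype hearts for sequencing than there are libraries, and the sources used here do not explain the difference. Hmox2 encodes heme oxygenase 2, an enzyme that breaks down heme, and the sources describe the Hmox2-/- mice only as carrying a deletion of it. The methods call the controls littermates. The sequenced mice are described as young, and their sex was not given in the sources used here. Heart RNA was extracted from whole pulverized hearts, with all chambers and all cell types together, and EC RNA was taken from the aortic lumen with another extraction kit, so that tissue and kit cannot be told apart. The design text speaks of heart and EC samples as matched, but which libraries came from the same mouse was not labelled, and the tests between tissues treat them as independent.

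These factors act together. GATA factors are zinc finger proteins, TBX factors bind DNA through a T-box, NKX2-5 is a homeodomain protein, HAND2 has a basic helix-loop-helix domain and MEF2 factors have a MADS box. GATA4, NKX2-5, TBX5 and MEF2C bind near each other at the regulatory elements of cardiac muscle genes such as Nppa, Myh6 and Actc1, and they remain expressed in the adult heart. TBX3 is best known as a repressor of the working muscle program in the conduction system, and TBX20 is needed for the maintenance of adult heart muscle. GATA6 and the MEF2 factors are also used outside the heart, among other places in vascular cells. In mouse embryos, loss of several of these genes disrupts heart formation.

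The 10 genes lie on 9 chromosomes in GRCm39, the build of the GENCODE M39 annotation. Gata4 (ENSMUSG00000021944) lies at chr14:63436362-63509141, Nkx2-5 (ENSMUSG00000015579) at chr17:27057638-27063983, Tbx20 (ENSMUSG00000031965) at chr9:24629434-24685599 and Mef2a (ENSMUSG00000030557) at chr7:66880911-67022606, all on the minus strand. Gata6 (ENSMUSG00000005836) lies on chromosome 18, Hand2 (ENSMUSG00000038193) at chr8:57774011-57777677, Mef2c (ENSMUSG00000005583) at chr13:83652064-83815555 and Mef2d (ENSMUSG00000001419) at chr3:88049185-88079398, all on the plus strand. Tbx3 (ENSMUSG00000018604, chr5:119806298-119822797) and Tbx5 (ENSMUSG00000018263, chr5:119970733-120023284) are neighbours on the plus strand of chromosome 5. Their transcripts differ in size, from a mean of 1517 bases for Nkx2-5 to 8763 bases for Tbx20. Few of their 31-base words occurred in transcripts of another gene, at most 1.16% for 9 members. Mef2a was the exception at 10.2%. The gene that shared the most with it was Lysmd4, which overlaps Mef2a on the other strand. Since the counting did not use the strand, reads of that stretch cannot be told apart.

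The libraries were close in depth, with 26067147 to 31619776 estimated counts in 12 of them and 7268626 in Hmox2+/+ heart replicate 1. Hmox2 CPM, depth-scaled counts, lay between 37.3 and 42.5 in Hmox2+/+ hearts against 7.53 to 8.90 in the Hmox2-/- group, and between 63.9 and 76.2 against 12.6 to 14.7 in ECs, so each library followed its label. CPM here are scaled by TMM within each tissue, a normalization that sets the typical gene equal between libraries. Ddx3y, a Y chromosome gene, was at 61.7 CPM or more in the 3 Hmox2+/+ EC libraries and 86.4 in Hmox2-/- replicate 1, but at 1.03 and 0.92 in Hmox2-/- EC replicates 2 and 3; all 7 hearts held 37.0 or more. Genes encoded by mitochondrial DNA took between 37.6 and 44.3% of a Hmox2+/+ heart library and between 22.5 and 27.2% of a Hmox2-/- one. The 10 cardiomyocyte markers (Myh6, Tnnt2 and others) summed to 55400 CPM or more in every heart, and the 10 endothelial markers (Pecam1, Cdh5 and others) to 3143 CPM or more in every EC library. The EC libraries also held transcripts of smooth muscle, of adipocytes (marker sums of 4023 to 6596 CPM against 4191 to 5121 CPM in Hmox2-/- ECs) and of erythroid cells (2397 to 3674 CPM against 1908 to 3564 CPM).

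The first comparison asked where the factors were expressed in mice with intact Hmox2. Gata4, Mef2a and Mef2d were the most abundant per transcript length in the heart, and Mef2d, Gata6 and Mef2a in the ECs. All 10 members were higher in Hmox2+/+ hearts than in Hmox2+/+ ECs in a fit over all 4 groups, and 9 of them by more than 2-fold. Of the 15911 genes tested in that fit, 32.2% were called higher in the heart at an adjusted p of at most 0.05, and 17.2% with a fold change of at least 2 as well. Adjusted p values throughout are those of edgeR's quasi-likelihood test with Benjamini-Hochberg adjustment over all genes tested.

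In Hmox2+/+ hearts, the length-adjusted abundance (TPM) of Gata4 averaged 43.2 ± 6.96 (SD, n = 4), those of Mef2a 40.7 ± 2.46 and those of Mef2d 34.8 ± 2.18. Gata4 and Mef2a overlapped between libraries, from 35.7 to 52.1 and from 37.1 to 42.7 TPM, and the lowest libraries of both reached into the range of Mef2d. The next tier held Nkx2-5 at 19.0 ± 6.62 TPM, Gata6 at 15.2 ± 3.21, Hand2 at 13.8 ± 3.39, Mef2c at 12.9 ± 1.17 and Tbx20 at 11.5 ± 1.18, whose libraries overlapped from each gene to the next in the order. Tbx5 stood at 8.13 ± 0.64 TPM, below every library of Tbx20. Tbx3, whose best known site of expression is the small conduction system, was lowest at 1.35 ± 0.27 TPM. In Hmox2-/- hearts Gata4 was again first at 49.1 ± 2.60 TPM (n = 3) and Tbx3 last at 1.05 ± 0.26, while Nkx2-5 stood second at 36.7 ± 8.56.

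A group of 4 members carried nearly all of the signal in Hmox2+/+ ECs. Mef2d was at 22.8 ± 4.78 TPM (SD, n = 3), Gata6 at 19.1 ± 9.03, Mef2a at 17.8 ± 2.06 and Mef2c at 6.37 ± 1.87, and the first 3 of these overlapped. The other 6 lay below 2.5 TPM in each EC library: Hand2 averaged 1.91, Gata4 0.94, Tbx5 0.78, Tbx20 0.70, Tbx3 0.50 and Nkx2-5 0.17. Thus the ECs held the MEF2 factors and GATA6, and little RNA of the factors that define heart muscle.

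The tissue difference on the log2 scale was widest for Nkx2-5, at 7.83 (SE 0.55, adjusted p = 7.60e-08), and for Gata4, at 6.31 (SE 0.32, adjusted p = 5.58e-10). Nkx2-5 had 0, 15 and 3 counts in the Hmox2+/+ ECs and entered the 4-group fit through the hearts. Its direction was thus fixed in advance, and its size rests on counts near 0. It ran from 7.32 to 9.72 when each library was left out. The count of 10 members higher in hearts includes it. Tbx20 followed at 5.57, Tbx5 at 4.08 and Hand2 at 3.89. Tbx3, Mef2a and Mef2c lay between 2.06 and 2.24, and Mef2d at 1.55. Gata6 differed least, at 0.92 (SE 0.18, adjusted p = 3.52e-04). Its sign depends on the scale: Gata6 TPM, which are shares of each library with no adjustment for the few very abundant heart transcripts, averaged 15.2 in hearts and 19.1 in ECs, and the libraries of the tissues overlapped.

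**Figure D1:**
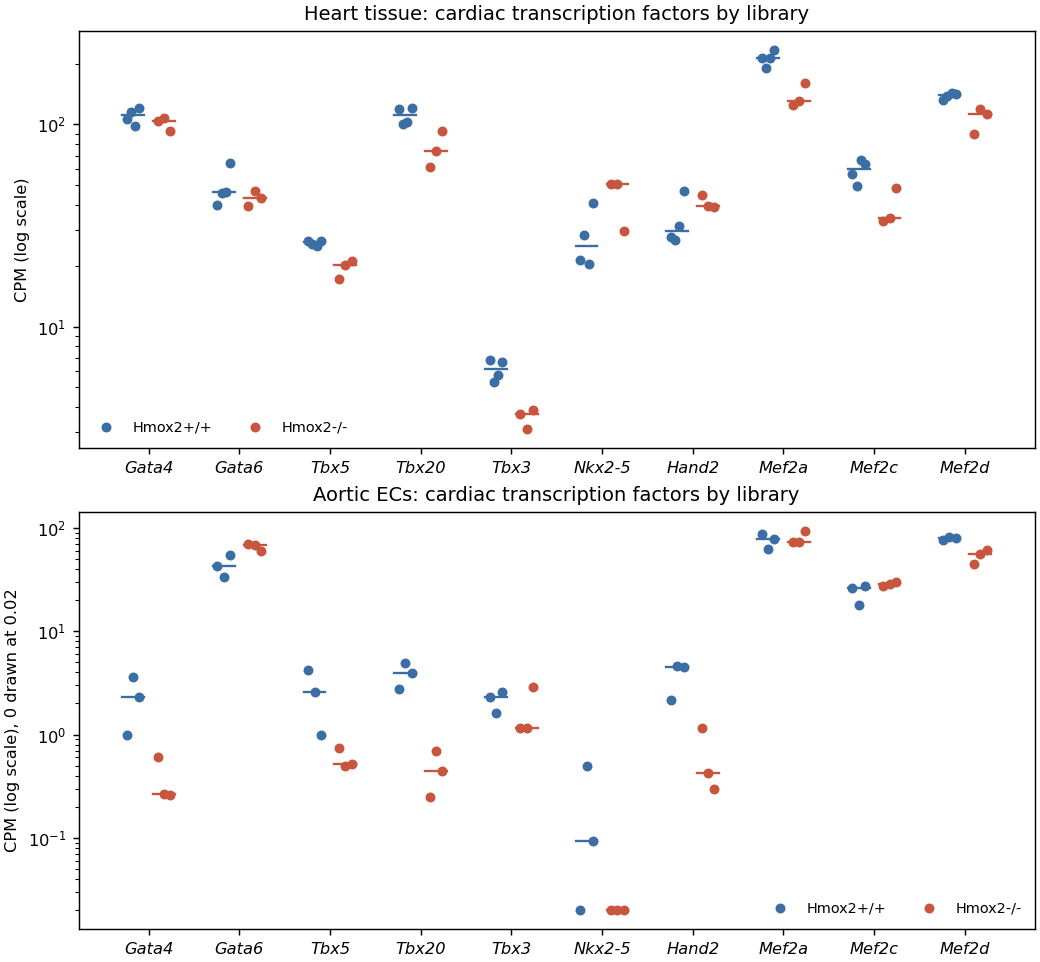
CPM of each factor (log scale) in heart tissue (upper panel) and in aortic ECs (lower panel), scaled within each tissue. Each point is a library, blue for Hmox2+/+ and red for Hmox2-/-, and the bars are medians. In hearts the red points of Tbx5, Tbx20, Tbx3 and the 3 Mef2 genes all lie below the blue ones, and in ECs those of Gata4, Tbx5, Tbx20, Hand2 and Mef2d do.

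The second comparison asked how the factors differed between Hmox2-/- and Hmox2+/+ hearts. All 3 MEF2 genes and all 3 T-box genes fell in Hmox2-/- hearts, to between 58.7% (Tbx3) and 77.0% (Mef2d) of the Hmox2+/+ level. The GATA genes, Nkx2-5 and Hand2 did not pass the test. Thus 6 of the 10 members were called lower and 0 higher, where 16.2% of the 13818 genes tested were called lower and 17.2% higher. In none of the 6 was the change 2-fold, as it was for 6.71% of all genes in either direction. The median log2 fold change of the 10 was -0.40, against -0.01 over all genes tested. The Hmox2-/- libraries of those 6 members lay below every Hmox2+/+ library, which held for 19.8% of all genes. By the mean transcript length in the deposited tables these 6 were also the longest members, at 3116 bases (Tbx5) or more. The other members had at most 2944 bases (Gata6), so this split does not tell gene family from length. The order of Gata6 and Tbx5 depends on the annotation. In GENCODE M39 the main Gata6 transcript has 4605 bases (95.3% of Gata6 TPM in Hmox2+/+ hearts). The main Tbx5 transcript has 3942 bases (71.2% of Tbx5 TPM). In whole tissue, fewer cells of a type and less RNA per cell cannot be told apart.

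Among the MEF2 factors, which drive muscle and stress-response genes, Mef2a was the most abundant in counts. Its CPM were 212, 190.0, 212 and 233 in the Hmox2+/+ hearts (replicates 1 to 4) and 124, 131 and 160.3 in the Hmox2-/- hearts (log2 fold change -0.61, SE 0.12, adjusted p = 0.00322). The highest Hmox2-/- heart was thus well below the lowest Hmox2+/+ heart. Mef2c, the MEF2 gene needed first in the embryonic heart, read 56.8, 49.6, 66.9 and 63.9 CPM against 33.4, 34.6 and 48.6 (log2 fold change -0.61, SE 0.15, adjusted p = 0.0106). Here Hmox2-/- replicate 3 came within about 1 CPM of the lowest Hmox2+/+ heart. Mef2d, the member tied to stress-dependent remodeling in adult hearts, was at 131, 138, 143 and 142 CPM against 89.5, 119 and 113 (log2 fold change -0.38, SE 0.11, adjusted p = 0.0218). Replicate 1 was the lowest Hmox2-/- heart for all 3 MEF2 genes. The Mef2c call was lost without Hmox2-/- replicate 2 (-0.53, adjusted p = 0.0555), and the Mef2d call without Hmox2+/+ replicate 2 (-0.37, adjusted p = 0.0552), 3 (-0.36, adjusted p = 0.0565) or 4 (-0.37, adjusted p = 0.0549).

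Of the T-box factors, Tbx5, an activator that works with NKX2-5 and GATA4, was the steadiest gene of the set in Hmox2+/+ hearts. It read 26.5, 25.7, 25.2 and 26.7 CPM there and 17.3, 20.1 and 21.2 CPM in Hmox2-/- hearts (log2 fold change -0.41, SE 0.10, adjusted p = 0.0108). The gap between the genotypes was wider than the whole spread among the Hmox2+/+ hearts. Tbx20 was at 119, 100.4, 103 and 121 CPM against 61.6, 74.2 and 92.4 (log2 fold change -0.54, SE 0.14, adjusted p = 0.0123). Tbx3 fell furthest, at 6.84, 5.33, 5.75 and 6.65 CPM against 3.70, 3.12 and 3.89 (log2 fold change -0.77, SE 0.16, adjusted p = 0.00545), from 46 to 188 estimated counts per library. The 2 genotypes did not overlap in any of these genes, although Hmox2-/- replicate 3 approached the Hmox2+/+ range in Tbx20, whose call was lost without Hmox2-/- replicate 2 (-0.52, adjusted p = 0.0534).

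Neither GATA gene, of which Gata4 is a central activator in heart muscle, passed the test. Gata4 was at 107, 116, 98.2 and 119.9 CPM in Hmox2+/+ hearts and 104, 108 and 93.1 in Hmox2-/- hearts, with a log2 difference of -0.12 (SE 0.10, adjusted p = 0.398). Gata6 ranged from 39.9 to 64.5 CPM and from 39.5 to 46.7 CPM, with a log2 difference of -0.20 (SE 0.15, adjusted p = 0.321). In both genes the libraries of the genotypes overlapped.

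Nkx2-5 and Hand2 had positive differences that did not pass the test. Nkx2-5 read 21.4, 28.4, 20.4 and 41.1 CPM in Hmox2+/+ hearts against 50.7, 50.9 and 29.6 CPM in Hmox2-/- hearts (log2 difference 0.63, SE 0.24, adjusted p = 0.0658). Replicate 4 of the Hmox2+/+ hearts stood above Hmox2-/- replicate 3, and leaving out either of these libraries brought Nkx2-5 past the threshold, at 0.89 (adjusted p = 0.0157) and 0.85 (adjusted p = 0.0101). Hand2 was at 27.7, 26.8, 31.5 and 46.7 CPM against 44.7, 39.4 and 39.1 (log2 difference 0.30, SE 0.17, adjusted p = 0.205), and it was again Hmox2+/+ replicate 4 that overlapped the other genotype. Without that heart the Hand2 difference was 0.51 (adjusted p = 0.0134).

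**Figure D2:**
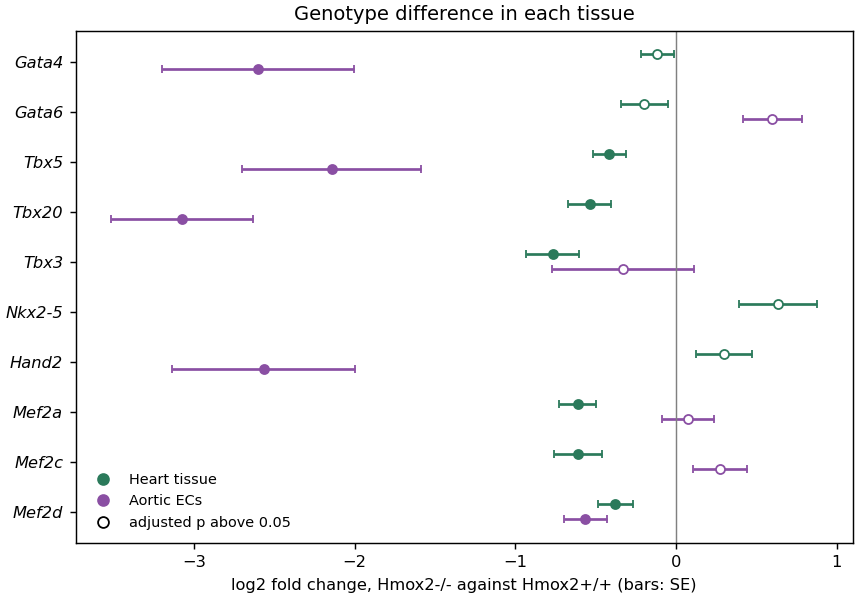
The log2 fold change of Hmox2-/- against Hmox2+/+ is shown for each factor in heart tissue (green) and aortic ECs (purple), with bars of 1 SE and open symbols where the adjusted p is above 0.05. Nkx2-5 was not tested in ECs. Gata4, Tbx5, Tbx20 and Hand2 lie beyond -2 in ECs and between -0.54 and 0.30 in hearts.

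Transcript length moved with the genotype in the hearts. Relative to the Hmox2+/+ mean, the 2842 genes of 4000 bases or more had a median log2 value of -0.51, -0.30 and -0.14 in Hmox2-/- hearts 1, 2 and 3, and the 4146 genes under 2000 bases had 0.46, 0.31 and 0.14. The order of these 3 libraries is the order in which the MEF2 genes other than Mef2d and the T-box genes other than Tbx3 lay below the Hmox2+/+ hearts. GC content moved as well: genes under 45% GC had medians of -0.22, -0.22 and -0.06 in the same hearts. With a per-library offset for length and GC content, the Tbx20 call was lost and its sign turned, from -0.54 to 0.10 (SE 0.08, adjusted p = 0.405). The other 5 still passed the test with smaller differences. Mef2a went from -0.61 to -0.22 (adjusted p = 0.0372), Mef2c from -0.61 to -0.32 (0.0255), Mef2d from -0.38 to -0.27 (0.0328), Tbx3 from -0.77 to -0.59 (0.0211) and Tbx5 from -0.41 to -0.39 (0.00491). With a replicate block added to the offset, Mef2a (-0.17, adjusted p = 0.124), Mef2d (-0.24, adjusted p = 0.0832) and Tbx3 (-0.55, adjusted p = 0.0537) no longer passed. Nkx2-5, the shortest member, was called higher with this offset, at 0.36 (SE 0.11, adjusted p = 0.0277). Tbx20, by far the longest member, moved most with the offset. Its GC content is also low, at 42.6%, and the joint offset does not tell length from GC.

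**Figure D3:**
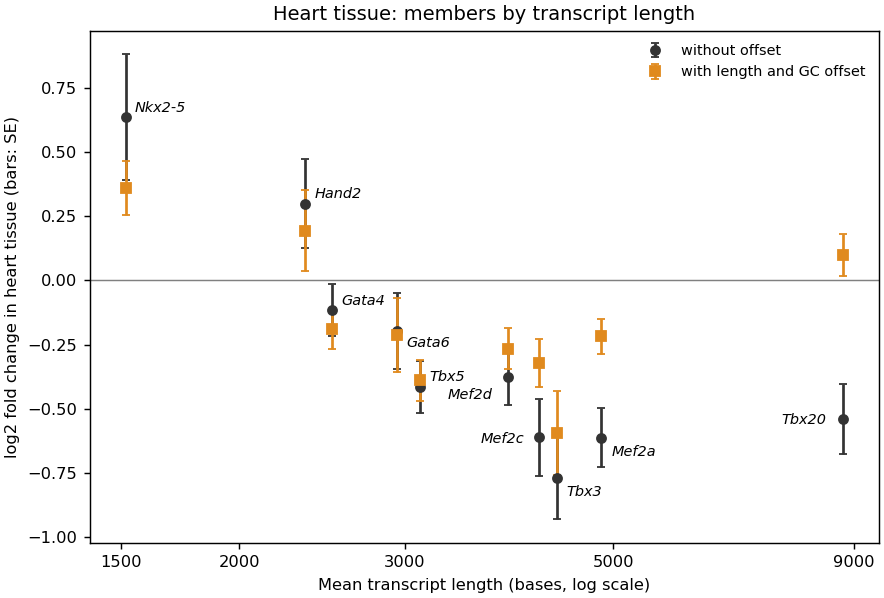
The log2 fold change in heart tissue (Hmox2-/- against Hmox2+/+) is plotted against mean transcript length in bases (log scale), without (black) and with (orange) a per-library offset for length and GC content; bars are 1 SE. The offset moves the long Tbx20 from -0.54 to 0.10, leaves Tbx5 near -0.4, and keeps Tbx3 and the 3 Mef2 genes below 0.

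On the TPM scale the members stood higher in Hmox2-/- hearts, relative to Hmox2+/+ hearts, than in the fit. Mef2d averaged 34.8 ± 2.18 TPM in Hmox2+/+ and 34.7 ± 6.85 in Hmox2-/- hearts, and Mef2c 12.9 ± 1.17 and 13.1 ± 5.12, while Tbx5 was at 8.13 ± 0.64 and 7.55 ± 0.90. Nkx2-5 averaged 19.0 ± 6.62 and 36.7 ± 8.56 TPM, Hand2 13.8 ± 3.39 and 21.4 ± 0.99, Gata4 43.2 ± 6.96 and 49.1 ± 2.60, and Gata6 15.2 ± 3.21 and 16.9 ± 2.02. TPM are shares of a whole library, and the share of mitochondrially encoded RNA was lower in every Hmox2-/- heart, as given above; its part in these values was not tested. With length-scaled TPM as the input to the test, Mef2c (-0.34, adjusted p = 0.206) and Mef2d (-0.34, adjusted p = 0.0544) no longer passed. Leaving the mitochondrially encoded genes out before normalization changed none of the 6 heart calls. Erythroid markers also differed, with sums between 183 and 341 CPM in the Hmox2+/+ group and between 887 and 1456 CPM in the Hmox2-/- group; their part in the member results was not tested. The same holds for endothelial markers (522 to 629 CPM against 685 to 713 CPM), ventricular markers (9417 to 9822 CPM against 11197 to 17324 CPM) and atrial markers (475 to 658 CPM against 217 to 354 CPM), none of which overlapped between the genotypes. Not every gene went with the sum of its list. Of the atrial markers, 3 were called higher (Myl7, Myl4 and Dkk3) and 1 lower (Nppa). Among ventricular markers 2 were called higher and 1 lower, and among endothelial markers 3 higher and 1 lower. The cardiomyocyte markers summed to 55400 to 60508 CPM and 57864 to 63502 CPM, which overlapped, and 4 of the 10 were called higher.

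The third comparison was between Hmox2-/- and Hmox2+/+ aortic ECs. Of the 9 members that passed the filter on low counts, Gata4, Tbx5, Tbx20, Hand2 and Mef2d were called, all lower in Hmox2-/- ECs, where 8.06% of the 15303 genes tested were called lower and 18.1% in either direction. The first 4 fell to between 11.9% and 22.6% of the Hmox2+/+ level, but from low counts. A gene that passed the filter only through its Hmox2+/+ libraries was bound to differ. Gata4 and Tbx20 had as few as 7 counts in a Hmox2-/- EC library and Hand2 as few as 8, under the minimum of 10. These genes thus needed Hmox2+/+ libraries to pass the filter, and the counts of called members include them. With a fold change of at least 2 as well, 4 members were called, against 3.89% of all genes lower. Gata6, Mef2a, Mef2c and Tbx3 did not pass the test, and Nkx2-5 was too low to be tested. The median log2 fold change of the 9 was -0.56, against -0.02 over all genes.

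Tbx20 had the widest difference. Its estimated counts were 75, 148 and 127 in the Hmox2+/+ ECs and 7, 18 and 12 in the Hmox2-/- ECs, or 2.77, 4.95 and 3.92 CPM against 0.25, 0.69 and 0.44 (log2 fold change -3.07, SE 0.44, adjusted p = 0.00651). It was the only member still called when each EC library was left out in turn. As Tbx20 needed Hmox2+/+ libraries to pass the filter, that is not independent support for its fall. Gata4 had 27, 109 and 74 counts against 17, 7 and 7, or 1.00, 3.64 and 2.29 CPM against 0.60, 0.27 and 0.26 (log2 fold change -2.60, SE 0.60, adjusted p = 0.0267). The lowest Hmox2+/+ library, replicate 1, was within 2-fold of the highest Hmox2-/- library, also replicate 1. With length-scaled TPM the Gata4 difference was -0.51 (adjusted p = 0.574), and its TPM overlapped between the genotypes, at 0.34, 1.52 and 0.95 against 1.05, 0.34 and 0.43. The Tbx5 call was also lost on that scale (-1.52, adjusted p = 0.0771).

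For Hand2, the counts were 58, 139 and 145 against 33, 11 and 8, or 2.14, 4.65 and 4.48 CPM against 1.17, 0.42 and 0.29 (log2 fold change -2.57, SE 0.57, adjusted p = 0.0241). Tbx5 had 115, 78 and 32 counts against 21, 13 and 14, or 4.25, 2.61 and 0.99 CPM against 0.74, 0.50 and 0.51 (log2 fold change -2.14, SE 0.56, adjusted p = 0.0378). No library of one genotype overlapped the other in any of the 5 called members, which held for 18.7% of all genes with Hmox2-/- lower, yet the Hmox2+/+ libraries of Tbx5 themselves spanned over 4-fold. The Gata4 and Hand2 calls were lost without Hmox2+/+ replicate 2 (-2.11 and -2.39), Hmox2-/- replicate 2 (-2.41 and -2.35) or Hmox2-/- replicate 3 (-2.39 and -2.22), with adjusted p values from 0.0568 to 0.104. The Tbx5 call was lost without any 1 library other than Hmox2+/+ replicate 3, at -2.35 to -1.61 (adjusted p = 0.0762 to 0.131). Nkx2-5 had 0, 15 and 3 counts in Hmox2+/+ ECs and 0 in all 3 Hmox2-/- ECs; a count of 0 allows up to 3, so no fold is given.

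Mef2d was the 1 called member with ample counts in the ECs. It was at 77.1, 82.8 and 79.5 CPM in Hmox2+/+ ECs and 44.4, 56.6 and 60.9 CPM in Hmox2-/- ECs (log2 fold change -0.56, SE 0.14, adjusted p = 0.0304), with at least 1255 counts in each library. The Hmox2+/+ libraries lay close together and every Hmox2-/- library lay below them. Mef2d has 55.6% GC. In Hmox2-/- ECs 1, 2 and 3, genes of 52% GC or more had medians of -0.12, -0.17 and -0.17 (log2, relative to the Hmox2+/+ mean). The Mef2d call too was lost without any 1 library other than Hmox2+/+ replicate 3, at -0.65 to -0.44 (adjusted p = 0.0561 to 0.0822). Over all 16 alternatives, the length and GC offset among them, its EC difference lay between -0.84 and -0.44 and was called in 8. Mef2d, Tbx5 and Tbx20 were called lower in both tissues, each time relative to that tissue's own controls, with the limits given above on the heart calls of Tbx20, whose sign turned with the offset, and Mef2d, which was lost in 3 of 7 fits without 1 library.

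Of the 4 members not called in ECs, Gata6, Mef2c and Mef2a had positive differences. Gata6 was at 42.7, 33.6 and 55.1 CPM in Hmox2+/+ ECs and 70.5, 68.9 and 59.7 CPM in Hmox2-/- ECs (log2 difference 0.60, SE 0.18, adjusted p = 0.0596). All 3 Hmox2-/- libraries lay above the Hmox2+/+ ones, as was the case for 22.0% of all genes, and DESeq2 put Gata6 past the threshold (adjusted p = 0.0227). Mef2c read 26.0, 18.2 and 27.6 CPM against 27.7, 28.9 and 30.2 (log2 difference 0.27, SE 0.17, adjusted p = 0.272), also without overlap, but by a margin under 0.1 CPM. Mef2a, at 62.7 to 87.8 CPM and 73.4 to 93.3 CPM, had a log2 difference of 0.07 (SE 0.16, adjusted p = 0.773). Tbx3 overlapped too, at 1.60 to 2.60 CPM and 1.15 to 2.87 CPM (log2 difference -0.33, SE 0.44, adjusted p = 0.620).

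Heart muscle transcripts moved with the 4 low-count factors in the ECs. The 10 cardiomyocyte markers summed to 138, 523 and 200 CPM in the Hmox2+/+ ECs and 11.1, 10.8 and 13.1 CPM in the Hmox2-/- ECs, and 9 of the 10 were called lower. At most 1 of the 10 was at 0 in a library, but 3, 0 and 2 were at or under 3 counts in Hmox2-/- ECs 1, 2 and 3. Markers that low needed Hmox2+/+ libraries to pass the filter, and the 9 calls can include them. The sum was highest in Hmox2+/+ replicate 2, as was Gata4, Tbx20 and Hand2, whereas Tbx5 was highest in replicate 1. Against the hearts, where the sum was at least 55400 CPM, the highest EC library was lower by about 2 orders of magnitude. Skeletal muscle markers summed to 7.55 to 62.8 CPM in Hmox2+/+ ECs and to at most 1.84 CPM in Hmox2-/- ECs. Smooth muscle markers summed to 6677, 3398 and 5247 CPM against 3760, 1223 and 1124 CPM, and endothelial markers to 3143 to 4585 CPM against 5466 to 6721 CPM. Summed fibroblast markers (2089 to 3983 CPM against 5260 to 6077 CPM) and macrophage markers (194 to 264 CPM against 301 to 403 CPM) were higher in every Hmox2-/- EC library. Among fibroblast markers 3 were called higher and 1 lower, Tcf21 (log2 fold change -2.51, adjusted p = 0.0453). The part of these cell types in the member results was not tested. Without Hmox2-/- replicates 2 and 3, the libraries with almost no Ddx3y, 0 of the 10 members then tested passed with edgeR, 3 had an unadjusted p under 0.05 (Tbx20, Mef2d and Hand2), and 49 of 16395 genes were called in all. The members had log2 differences of -1.93 for Gata4, -1.80 for Tbx5, -3.94 for Tbx20, -1.68 for Hand2 and -0.84 for Mef2d; that fit held 1 Hmox2-/- library, assumed to vary like the others.

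**Figure D4:**
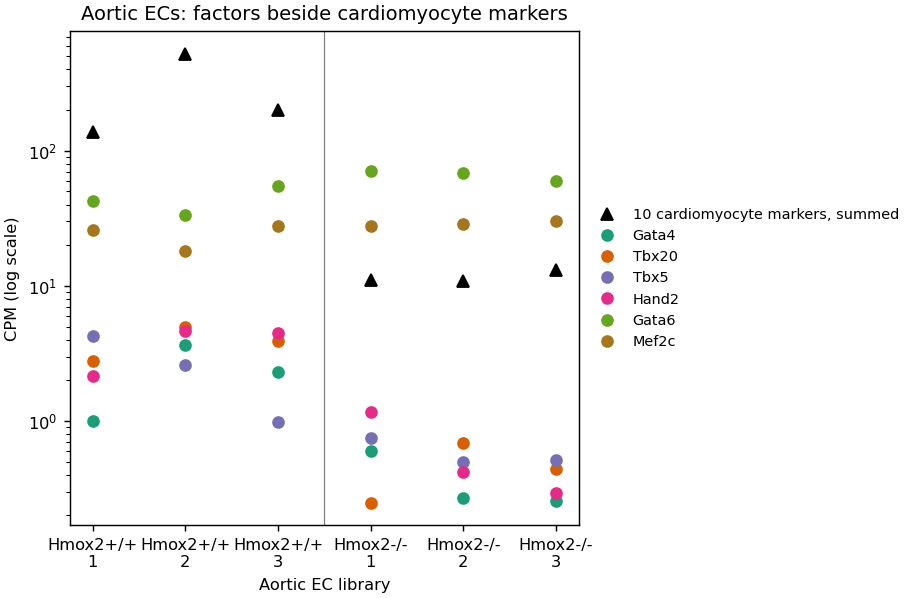
CPM (log scale) of 6 factors (circles) and of 10 cardiomyocyte markers summed (triangles) in each of the 6 aortic EC libraries, with Hmox2+/+ left of the line and Hmox2-/- right of it. The marker sum is 138 to 523 CPM on the left and 10.8 to 13.1 on the right; Gata4, Tbx20, Tbx5 and Hand2 are lower on the right, and Gata6 and Mef2c are not.

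The fourth comparison tested whether the genotype difference itself differed between heart and ECs, as a tissue by genotype interaction. It passed for 8 of the 10 members, where 28.9% of the 15911 genes tested were called, 16.2% with the heart difference the more positive and 12.7% with the EC difference. With a fold criterion of 2, 5 members were called, against 15.4% of all genes. Both counts include Nkx2-5, which entered this fit through the hearts and had 0 counts in all Hmox2-/- ECs, so that its value depends on the prior count and is not a measured difference. For Gata4, Tbx5, Tbx20, Hand2 and Nkx2-5 the heart difference was the more positive. The value was 2.52 for Gata4 (SE 0.49, adjusted p = 0.00248), 1.75 for Tbx5 (SE 0.49, adjusted p = 0.0162), 2.59 for Tbx20 (SE 0.37, adjusted p = 4.90e-04) and 2.90 for Hand2 (SE 0.50, adjusted p = 0.00127). For Gata6, Mef2a and Mef2c it was the EC difference that was the more positive, by 0.75, 0.64 and 0.84 in the order given (adjusted p = 0.0386, 0.0323 and 0.0187). Mef2d and Tbx3 did not pass, with values of 0.23 (adjusted p = 0.362) and -0.40 (adjusted p = 0.511). With the offset for length and GC content, the Mef2a value was 0.01 and that of Mef2c -0.37 (adjusted p = 0.993 and 0.146).

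The MEF2 genes each carry alternative coding exons that other studies have tied to muscle, and the estimated TPM of their transcripts allowed the share with each exon to be followed. Mef2d has a pair of mutually exclusive exons, and each of the 3 genes has a short exon further downstream. Their sequences are shown because the shares below are shares of transcripts with these stretches. In the pair from Mef2d (GRCm39, plus strand, 138 bases at chr3:88065341-88065478 and 135 bases at chr3:88065528-88065662), capitals mark bases that differ between the aligned exons, which were 56.1% identical. The short exons (Mef2d, 21 bases at chr3:88069088-88069108; Mef2a, 24 bases at chr7:66894269-66894292 on the minus strand; Mef2c, 24 bases at chr13:83802717-83802740) are in capitals throughout.
Mef2d 138-base exon: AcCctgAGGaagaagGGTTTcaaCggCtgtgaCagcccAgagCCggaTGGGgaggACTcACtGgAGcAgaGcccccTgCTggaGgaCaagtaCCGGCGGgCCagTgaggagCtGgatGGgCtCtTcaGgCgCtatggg
Mef2d 135-base exon: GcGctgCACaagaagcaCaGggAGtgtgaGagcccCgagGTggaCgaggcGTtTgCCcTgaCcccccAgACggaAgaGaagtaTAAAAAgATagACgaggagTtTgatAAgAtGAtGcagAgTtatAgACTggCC
Mef2d 21-base exon: ACTGAGGACCATTTAGATCTG
Mef2a 24-base exon: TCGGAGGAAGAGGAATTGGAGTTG
Mef2c 24-base exon: TCTGAGGATGTGGATCTGCTGTTG

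The 135-base and 21-base exons of Mef2d were used more in hearts. The 138-base exon was used less there, at a mean of 85.5% in Hmox2+/+ hearts and 95.9% in Hmox2+/+ ECs. The 135-base exon was in 15.9, 13.8, 15.5 and 12.9% of the TPM of Mef2d coding transcripts in Hmox2+/+ hearts and in 3.87, 4.15 and 4.28% in Hmox2+/+ ECs. It was at 13.4, 16.0 and 13.5% in Hmox2-/- hearts and 5.63, 2.52 and 1.80% in Hmox2-/- ECs. The tissues were thus separate in every library and the genotypes overlapped within each tissue. The 21-base exon was in 21.7, 19.2, 20.0 and 17.8% in Hmox2+/+ hearts and 2.93, 4.71 and 5.48% in Hmox2+/+ ECs. In Hmox2-/- hearts it was in 24.5, 22.3 and 27.3%, above every Hmox2+/+ heart, and in Hmox2-/- ECs in 0.59, 3.84 and 1.00%, which overlapped the controls.

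The Mef2a 24-base exon was more used in Hmox2+/+ hearts than in Hmox2+/+ ECs. The share was 79.4, 77.2, 79.9 and 80.7% in Hmox2+/+ hearts, 76.2 ± 2.60% (SD, n = 3) in Hmox2-/- hearts, 51.2 ± 5.52% (n = 3) in Hmox2+/+ ECs and 68.1 ± 10.4% (n = 3) in Hmox2-/- ECs. Among the ECs the Hmox2-/- libraries (60.8 to 80.0%) lay above the Hmox2+/+ ones (46.8 to 57.4%). In Mef2c the corresponding exon did not separate the tissues, between 42.9 and 61.5% in the Hmox2+/+ hearts and between 54.1 and 58.4% in the ECs of that genotype. The Mef2c 138-base exon of a mutually exclusive pair (chr13:83773589-83773726) was in 28.7 ± 4.51% in Hmox2+/+ hearts and 15.2 ± 7.58% in Hmox2-/- hearts, with overlap between the genotypes, and in 13.9 ± 7.72% and 30.9 ± 1.04% in the ECs, without overlap. No test was run, because these exons were chosen with the values in view and because Kallisto splits reads that several transcripts share, so that the shares carry an error not shown by the spread.

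**Figure D5:**
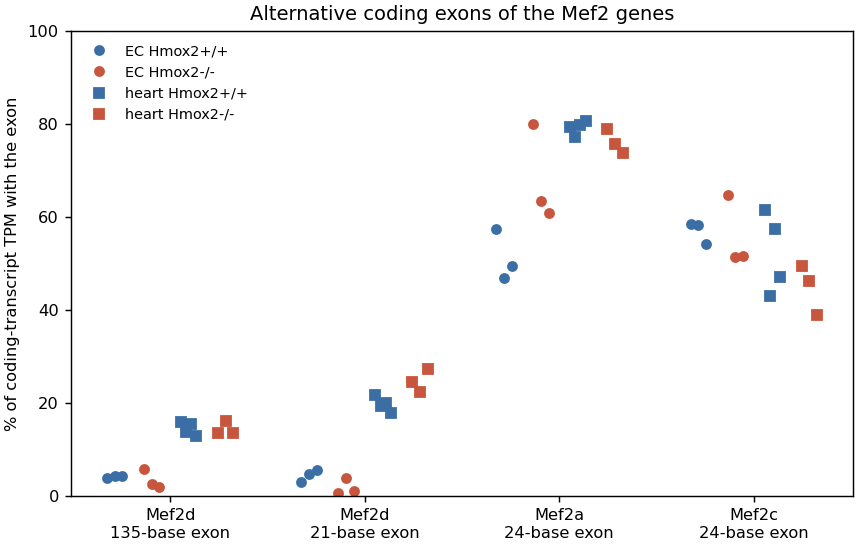
The share of coding-transcript TPM that carries each of 4 alternative exons, in % of the gene's coding TPM, with circles for aortic ECs and squares for hearts, blue for Hmox2+/+ and red for Hmox2-/-. Both Mef2d exons are at 12.9% or more in each heart and under 6% in each EC library, the Mef2a exon is highest in hearts and in 1 Hmox2-/- EC library, and the Mef2c exon overlaps between tissues.

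Of 13 family relatives (other GATA, T-box, NKX2, HAND and MEF2 genes), 6 were tested there and 1 was called, Tbx18, a gene of the epicardium and sinus node (log2 fold change 0.96, adjusted p = 0.0125). Among 8 tested in ECs, 3 were called. Tbx2, a repressor close to Tbx3, was lower in Hmox2-/- ECs (log2 fold change -1.26, adjusted p = 0.0412), and Nkx2-3 and Gata3, both known in endothelium, were higher (0.87, adjusted p = 0.00923, and 1.19, adjusted p = 0.0151). Of all genes, 33.4% were called in either direction in the heart and 18.1% in ECs.

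In hearts 33.4% of all genes were called, and 16.2% were called lower. Among 29 cofactors and partner factors, 27 were tested in hearts and 8 were called, 7 of them lower. The 3 with the largest decrease were Irx3 (-0.88, adjusted p = 0.0100), a conduction system gene, Prox1 (-0.81, adjusted p = 0.0127) and Tead1 (-0.68, adjusted p = 0.0158), a Hippo pathway factor active in heart muscle; Smarcd3, a chromatin remodeling subunit that works with GATA4 and TBX5, was higher (0.36, adjusted p = 0.0321). Of 26 tested in ECs, where 18.1% of all genes were called, 3 were lower and 3 higher. Myocd, the coactivator of muscle genes (-2.16, adjusted p = 0.0185), Smarcd3 (-1.10, adjusted p = 0.0249) and Srf, the partner of Myocd (-1.01, adjusted p = 0.0177), were lower. Isl1, an early cardiac progenitor factor (1.19, adjusted p = 0.00719), Hey2, a Notch target of arterial endothelium (0.84, adjusted p = 0.0268), and Foxp1 (0.52, adjusted p = 0.0225) were higher. The median over the tested list was -0.17 in hearts and -0.13 in ECs, against -0.01 and -0.02 over all genes. In hearts 19 of the 27 were negative, and in ECs 16 of the 26.

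Of 32 known cardiac target genes, 31 were tested in hearts and 16 were called, 8 in each direction, beside 33.4% of all genes called. Ttn, the giant sarcomere spring (-1.53, adjusted p = 0.00153), Nppa, which encodes atrial natriuretic peptide (-1.15, adjusted p = 0.00191), and Myom2 (-0.68, adjusted p = 0.00422) fell furthest. Myl7, the atrial myosin light chain (2.92, adjusted p = 0.00150), Nppb, which encodes brain natriuretic peptide (1.26, adjusted p = 0.00517), and Myl2, the ventricular light chain (0.64, adjusted p = 0.00467), rose most. Myl7 stayed low throughout, with at most 1.42 CPM in a Hmox2+/+ heart and between 4.08 and 13.2 CPM in the Hmox2-/- group. In ECs, 29 were tested and 21 were called lower, beside 8.06% of all genes, led by Myl2 (-8.85, adjusted p = 0.00539), Myh6 (-7.53, adjusted p = 0.00191) and Tnnt2 (-6.39, adjusted p = 0.00240). Gja5, a connexin of arterial endothelium as well as atria (1.00, adjusted p = 0.0327), and Kcnj2 (1.25, adjusted p = 0.0284) were the 2 called higher. The list's median log2 fold change was -2.67 in ECs and -0.23 in hearts. Several of these targets are also cardiomyocyte markers, and so the count in ECs holds the same transcripts as the marker sum above. In Hmox2-/- ECs 1, 2 and 3, 7, 6 and 4 of the 32 genes were at or under 3 counts. Any such gene that was tested needed Hmox2+/+ libraries to pass the filter. Its fold rests on counts near 0, and its call is no independent support for a fall.

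The genes most like a member over the 13 libraries, by Pearson correlation of log2 CPM, followed the tissue difference, which all points share, and no p is given. Gata4 was closest to Myoz2 (r = 0.998), Ankrd1 and Smpx, all genes of striated muscle, Tbx20 to Xirp2 (r = 0.997), Myh6 and Mybpc3, and Hand2 to Cox6a2 (r = 0.991), Smpx and Tnnt2. Nkx2-5 was closest to Mov10l1 (r = 0.997). Mef2a was closest to Cep128 (r = 0.995), Mef2c to Gnl3l (r = 0.991) and Mef2d to Dvl3 (r = 0.992). Gata6, the member with the smallest tissue difference, had its closest gene at r = 0.922 (Cyp39a1).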

How the data were processed

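RNA-seq of 13 libraries was analysed. The authors pseudoaligned paired reads with kallisto 0.44.0 and default parameters, which do not use the strand, and deposited estimated counts and TPM for each transcript, with no scaling across libraries. GENCODE M32 is named in the methods, and mm10 in the submitters' processing notes. Transcripts were assigned to GENCODE M39 genes by stable identifier (115191 of 118489 matched, leaving 0.747 to 1.01% of a library's counts unassigned), summed per gene and rounded. Genes kept by filterByExpr (minimum count 10) were TMM-normalized and tested with edgeR 4.0.16 (R 4.3.3, limma 3.58.1) within each tissue, and over 4 groups for the tissue and interaction comparisons; a call needed an adjusted p (Benjamini-Hochberg) no higher than 0.05. Standard errors were derived from the log2 fold change and F. The procedure was tested on simulated data. Labels number the libraries and do not link tissues, so they were treated as independent although the design text calls the tissues matched. The p values set a group difference against the spread between libraries, estimated with information shared over genes. Whether each library came from a separate mouse is not stated. The named genes were the members, Hmox2, Ddx3y, Lysmd4, markers, per list and tissue the 3 called genes that rose and the 3 that fell most, and the 3 most correlated genes per member, which for Tbx5 and Tbx3 are not reported here. The members and lists were chosen with earlier results of these data known. Alternatives were DESeq2 1.42.0, upper-quartile scaling, no filter, length-scaled TPM, a replicate block, a smooth length and GC offset per library, no mitochondrially encoded genes, another set of libraries in the fit (for the 4-group results limma-voom), each library left out, libraries with Ddx3y under 5 CPM left out, and an added fold change criterion of 2. Python 3.11.15 and matplotlib 3.10.9 were used for the plots.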

Additional observations from a re-analysis of the deposited data

Results flagged for a closer look

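The genotype difference differed between heart and aortic ECs by the interaction test for 8 members (log2, heart minus ECs). It was 2.52 for Gata4, 1.75 for Tbx5, 2.59 for Tbx20, 2.90 for Hand2 and 5.83 for Nkx2-5, and -0.75 for Gata6, -0.64 for Mef2a and -0.84 for Mef2c. The Nkx2-5 value is fitted against Hmox2-/- ECs that are all at 0 counts, so it depends on the prior count and is no fold (SE 2.04, adjusted p = 0.0496). In the first 4 the EC counts behind the difference are low, at 7 to 148 per library, and cardiomyocyte marker sums of 138 to 523 CPM in Hmox2+/+ ECs and 10.8 to 13.1 CPM in Hmox2-/- ECs stand beside them; their part was not tested. Gata6 passed in 3 of the 13 fits that each left out 1 library, Mef2a in 7 and Nkx2-5 in 4. Tbx20, Gata4, Hand2 and Tbx5 passed in all 13. Over all 23 alternatives, Tbx20 and Hand2 passed in each, Gata4 in 21 and Tbx5 in 20. Their lowest values were 2.28, 2.02, 0.40 and 1.09, in the order named.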

How the results depend on the processing

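The tissue difference was called for all 10 members under every alternative, 9 of them also with the fold change criterion. Nkx2-5 entered through the hearts, so its calls are no independent support. The heart count of 6 was 3 with all 13 libraries in 1 fit, 0 with the fold change criterion, 4 with the block and offset together (Tbx20, Mef2a, Mef2d and Tbx3 lost, Nkx2-5 and Hand2 gained), and 4 to 7 when each library was left out. The EC count of 5 was 3 with length-scaled TPM, 2 with the replicate block together with the length and GC offset, 0 without the libraries under 5 CPM of Ddx3y, and 1 to 6 when each library was left out (1 without Hmox2+/+ replicate 2, Hmox2-/- replicate 2 or Hmox2-/- replicate 3, and 3 without replicate 1 of either genotype). The interaction count of 8 was 3 with length-scaled TPM, 4 with the block and offset together, 2 without the libraries under 5 CPM of Ddx3y, 5 with the fold change criterion, and 4 to 8 when each library was left out (5 without Hmox2+/+ heart 3, Hmox2+/+ EC 2 or Hmox2-/- heart 1, and 4 without Hmox2-/- heart 2).

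Signs turned for 4 results. Tbx20 in hearts was 0.10 with the offset and 0.15 with block and offset. Mef2a in ECs was -0.19 and -0.18 under the same settings, -0.044 without the libraries under 5 CPM of Ddx3y, and -0.051 to 0.19 when each library was left out. The Mef2a interaction was 0.0053 and 0.047 under the offset and with block and offset, and the Tbx3 interaction was 0.16 without the libraries under 5 CPM of Ddx3y and -0.62 to 0.17 when each library was left out. In ECs Gata4 was -0.51 with length-scaled TPM (adjusted p = 0.574), where the TPM of its few Hmox2-/- reads sits mostly on short transcripts. The cause of these changes was not tested.

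Whether the replicate numbers pair the libraries could not be settled with so few libraries. Deviations of same-numbered libraries correlated at 0.18, 0.04 and 0.09 in ECs and at -0.03, 0.08 and 0.04 in hearts. Those of unlike-numbered libraries ran from -0.23 to 0.16 in ECs and from -0.11 to 0.08 in hearts. With the replicate block, in which Hmox2+/+ heart 4 has no partner and drops out, Gata4 in ECs had an adjusted p of 0.0528, and in hearts Tbx5 (0.0530), Tbx20 (0.0625) and Mef2d (0.0536) lost their calls while Nkx2-5 (0.0170) and Hand2 (0.0285) gained one. Counts limit the EC results: Gata4, Tbx5, Tbx20 and Hand2 had 7 to 33 counts in each Hmox2-/- library.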

Other observations

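Atrial transcripts in the hearts did not move together. Myl7 and Myl4 were higher in Hmox2-/- hearts (log2 fold changes of 2.92 and 2.27, adjusted p = 0.00150 and 0.0255), with 13.2 CPM of each in Hmox2-/- replicate 3 and at most 4.11 CPM in the other two, whereas Nppa was lower, with between 472 and 654 CPM in the Hmox2+/+ group and at most 346 CPM in the Hmox2-/- group. Dkk3, another atrial marker, was also called higher in Hmox2-/- hearts (log2 fold change 1.37, adjusted p = 0.0376). Irx4, a ventricular factor that was not among the members, was at 24.7 ± 3.81 CPM (n = 4) and 24.9 ± 1.77 CPM (n = 3).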
